A study of Mus musculus with 4 samples.

Results

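The 10 genes described here, which encode proteins that take up, store, and burn fatty acids, were followed in large intestinal ILC2s treated with deoxycholic acid (DCA), a secondary bile acid made by gut bacteria. They were picked by name from the deposited count table and are Pparg, Cd36, Fabp5, Dgat1, Dgat2, Plin2, Hilpda, Cpt1a, Acadm, and Acadl, 10 of the 27179 genes in the table. ILC2s are innate lymphocytes that secrete type 2 cytokines, and those used here came from the large intestine of WT C57BL/6 mice by a CD45.2+Lin-CD127+KLRG1+ sort. Cells of both groups grew for 5 days in a cytokine mix (IL-33, IL-25, IL-7, and IL-2, each at 10 ng/mL), and then received either vehicle or 100 μM DCA, so that the vehicle libraries also come from cytokine-stimulated cells. The treatment time is 24 hours in the paper's methods and 16 hours in the deposited design text, and the methods differ between sections on the age (6 to 8 or 6 to 14 weeks) and sex of the mice. There were 2 libraries per treatment, made as full-length cDNA, and neither the labels nor the methods say whether the 2 came from separate animals, so a p-value measures only the spread between these libraries.

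Fatty acids enter cells through carriers such as CD36, are ferried in the cytosol by fatty acid binding proteins, and are activated to acyl-CoA. Acyl-CoA is either built into triglyceride by the DGAT enzymes and kept in lipid droplets coated with perilipins, or carried into mitochondria through CPT1 and shortened by acyl-CoA dehydrogenases. PPARγ, a nuclear receptor that binds lipids and pairs with an RXR, switches on many of these genes in fat cells and macrophages. In ILC2s, lipid droplets and fatty acid oxidation are known to fuel proliferation and cytokine release, and PPARγ is a known ILC2 gene.

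The libraries held 26564059 to 35838342 counts, except DCA replicate 2, which held 244165712. Levels are in CPM, the count of a gene per 1e+06 counts after TMM scaling, and pairs of values give replicate 1 and then replicate 2. Tests by edgeR quasi-likelihood covered the 11184 genes whose mean reached 1 CPM, 9 of the 10 followed here among them. Of 13 ILC2 markers, 12 were at 10 CPM or more in every library (Thy1 was the exception, at 4.24 CPM in DCA replicate 1 and under 0.1 CPM in the others). Markers of adipocytes and of macrophages, which are known for CD36, PPARγ, and perilipins, had almost no counts. Of 6 adipocyte markers, 5 were at 0 in every library, including Adipoq, Plin1, and Fabp4, and the summed level of the 8 macrophage and monocyte markers was 0 to 0.383 CPM with vehicle and 0 to 0.0749 CPM with DCA, with Csf1r and Cd14 at 0. The 8 epithelial markers summed to 8.29 and 16.8 CPM with vehicle and to 10.2 and 11.1 CPM with DCA. Over all libraries, summed markers reached 26.7 CPM for T cells (almost all Cd3g) and 55.2 CPM for B cells (almost all Cd79b). Sums were at most 4.71 CPM for mast cells and basophils, 3.53 CPM for ILC3s, and 12.9 CPM for endothelial cells and fibroblasts.

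By edgeR quasi-likelihood with Benjamini-Hochberg adjustment, 0 of the 9 tested genes passed at 0.05, and so did 0% of all genes tested (0 of 11184). Before adjustment 0 of the 9 reached 0.05, against 4.27% of all genes (2.54% higher and 1.73% lower with DCA). DESeq2 gave 1 of 9 (Pparg) before adjustment, against 7.01% of all genes, and 0 of 9 after it, against 1.13%. Pparg came closest and was lower with DCA, Dgat1 was the only one with both DCA libraries at a higher level than either vehicle library, and Acadl, Plin2, and Acadm sat at nearly the same mean level with either treatment. The median log2 fold change of the 9 genes was 0.056, beside 0.0080 over all genes tested. Vehicle and DCA libraries were fully separated for 2 of the 9 (Pparg and Dgat1), where 33.3% of all genes tested were, and with 2 libraries against 2 the smallest p that a two-sided exact permutation test can give is 0.333. In bulk RNA, fewer cells expressing a gene and less RNA per cell cannot be told apart.

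**Figure D1:**
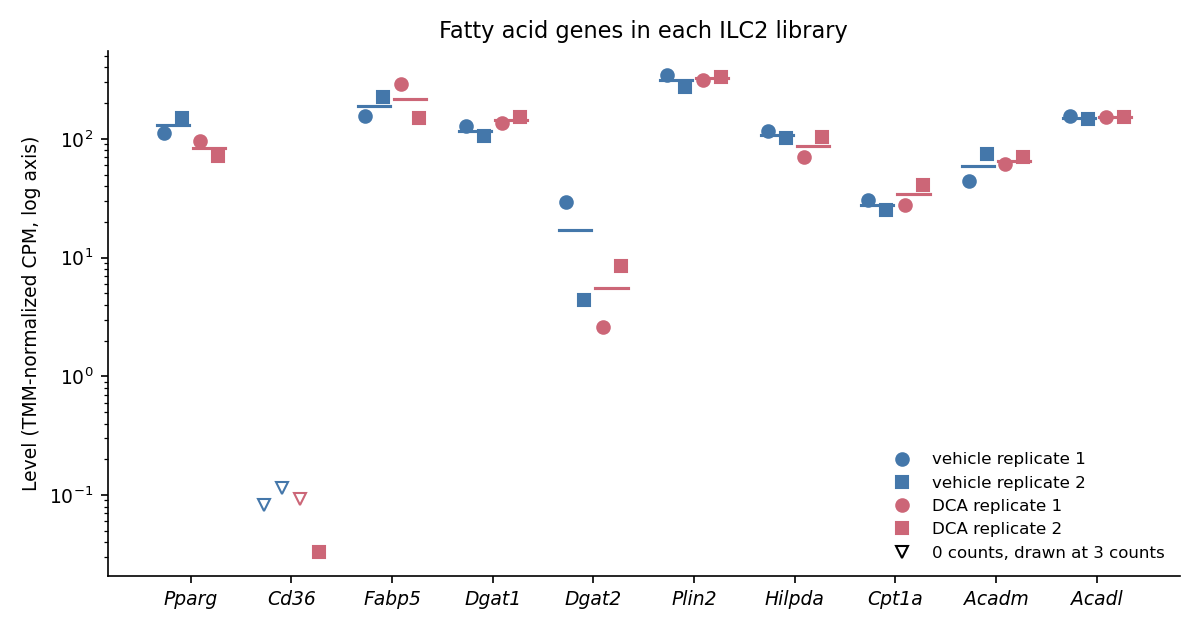
Level of each gene in each library, in TMM-normalized CPM on a log axis, with vehicle in blue, DCA in red, and bars at the mean of 2 libraries. Open triangles mark 0 counts and are drawn at 3 counts, the most that a count of 0 allows by counting error alone. Plin2 is highest, Cd36 is at the limit of detection, and the 2 vehicle points of Dgat2 lie farther apart than those of any other of the genes.

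Pparg encodes PPARγ itself (Entrez gene 19016, chromosome 6, 115360951 to 115490399 on GRCm38, plus strand). The vehicle libraries held 113 and 150 CPM of Pparg, and the DCA libraries 95.1 and 72.1 CPM. The groups did not overlap, with DCA lower, as was the case for 14.7% of all genes tested. Mean Pparg was 132 ± 26.6 CPM (SD, n = 2) without DCA and 83.6 ± 16.2 CPM (SD, n = 2) with it. The edgeR log2 difference of Pparg was -0.65, with an unadjusted p of 0.0661 by edgeR quasi-likelihood (adjusted p = 0.999). The SE of 0.29, like every SE given here, was computed over log2(CPM + 1), a scale other than that of the edgeR difference. The 95% interval from limma on log2(CPM + 1) ran from -1.32 to 0.03. The unadjusted p of Pparg was 0.0425 without a filter on low genes and 0.0473 with DESeq2, and the adjusted p was 0.470 or more in every alternative that kept all 4 libraries.

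The table counts reads per gene, so the transcripts that start at different Pparg promoters cannot be separated. Of the other receptors, Ppara was at 0 counts in all 4 libraries, which allows up to 0.0125 CPM in the deepest library, and Ppard stood at 1.48 and 0.115 CPM (vehicle) and 0.557 and 1.48 CPM (DCA). These receptors were singled out after their values were seen. Per length (CPM per kilobase of exon), Pparg was at 30.3 to 63.2 in the 4 libraries, while Ppard did not exceed 0.452, so PPARγ mRNA was the main PPAR mRNA in these cells with either treatment.

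The RXR genes encode the partners of PPARγ on DNA. By mean over the libraries, Rxrb had the highest level per length among the other regulators (Pprc1, a coactivator, with the exon lengths of the full annotation), at 37.0 and 18.1 CPM (vehicle) and 23.6 and 14.9 CPM (DCA), and its libraries overlapped. With vehicle, Rxrg was at 0 counts in each library, and with DCA at 295 and 1438 counts, or 9.13 and 5.98 CPM. Against 3 counts per vehicle library, Rxrg was at least 76.7-fold higher with DCA, or at least 60.7-fold taking DCA replicate 2 by itself. These bounds allow for counting error only, and a 0 can stand beside a clear level within a group. With vehicle, Lpin1 had 642 and 0 counts. Rxra, another RXR gene, had 104 and 0 counts with vehicle and 331 and 496 counts with DCA. Scaled to depth, Rxra stood at 2.84 and 0 CPM (vehicle) and 10.2 and 2.06 CPM (DCA), and its libraries overlapped. Rxrg passed the filter of 1 CPM only through the DCA libraries, so its direction follows from the filter. For Rxrg the edgeR quasi-likelihood fit gave an unadjusted p of 0.0043 (adjusted p = 0.999). DESeq2 gave an adjusted p of 0.000456 for Rxrg, the only gene of the 76 tested in the fatty acid lists that it called, where 1.13% of all genes were called. Across the alternatives that kept all 4 libraries the adjusted p of Rxrg ranged from 1.55e-05 to 1. Among 10 PPARs, RXRs, and coactivators, 7 were tested, 0 passed the adjusted test, and the median log2 fold change was -0.52, with 2 above 0 and 5 below.

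PPARγ and RXR bind DNA at a direct repeat of the half-site AGGTCA. RefSeq promoter windows (GRCm38.p6, 250 bases before to 50 after each start) were found for 7 of the 10 genes, 10 windows in all, and not for Fabp5, Dgat1, and Dgat2. Searched on both strands, the half-site occurred in 6 of the 10 windows, from 5 genes, and in 16.3% of the 32851 windows of all genes. The full repeat AGGTCANAGGTCA, which contains the half-site, was in 0 of the 10 windows and in 0.0396% of all windows. The stretches around the 6 half-sites are shown because they are where the letters of a PPAR half-site fall in these promoters. The half-site is in capitals, as AGGTCA or as TGACCT where it lies on the opposite strand, each stretch reads 5′ to 3′ on the gene's strand, and positions are counted from -1, the last base before the start.
Pparg, chr6:115361106-115361131, plus strand, half-site from -28 to -23: ccgccgcctcAGGTCAgagtcgcccc
Pparg, chr6:115362330-115362355, plus strand, half-site from -9 to -4: ggacgcgaggAGGTCAagaaggggcc
Plin2, chr4:86670262-86670287, minus strand, half-site from -218 to -213: tcaggaccccTGACCTaagtcagaca
Cd36, chr5:17836109-17836134, minus strand, half-site from -228 to -223: ctgcactttaTGACCTgagattttca
Cpt1a, chr19:3323197-3323222, plus strand, half-site from -94 to -89: gtttccttacTGACCTcctccccgca
Acadm, chr3:153944877-153944893, minus strand, half-site from -249 to -244: gTGACCTtcgggctccg
A match is a run of letters and not a shown binding site. The genes with a half-site span the whole range of levels described here, from Cd36, close to 0, to Plin2, at about 300 CPM.

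For uptake, Cd36, the membrane fatty acid translocase (Entrez gene 12491, chromosome 5, 17781690 to 17888801, minus strand), had 0 counts in both vehicle libraries and in DCA replicate 1, and 8 counts in DCA replicate 2, which is 0.0333 CPM. A count of 0 allows up to 0.0821 and 0.115 CPM in vehicle replicates 1 and 2 and 0.0929 CPM in DCA replicate 1, counting error only, all above the value in DCA replicate 2. A difference in Cd36 between treatments was not detectable at this depth, and the gene was not tested. Fabp5, the epidermal fatty acid binding protein (Entrez gene 16592, chromosome 3, 10012548 to 10016607, plus strand), stood at 156 and 224 CPM (vehicle) and 288 and 149 CPM (DCA). DCA replicate 1 was above both vehicle libraries and DCA replicate 2 below both. Mean Fabp5 was 190 ± 47.6 CPM (SD, n = 2) without DCA and 218 ± 98.5 CPM (SD, n = 2) with it, a log2 difference of 0.20 (SE 0.54, edgeR unadjusted p = 0.611). Without DCA replicate 1 the log2 fold change of Fabp5 was -0.36, and without vehicle replicate 1 it was -0.064. Fabp5 has processed pseudogene copies, and how reads shared with such copies were counted is not given in the sources used here.

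Fabp5 was the only fatty acid binding protein gene in the list to reach a mean of 1 CPM. Fabp2, Fabp4, and Fabp7 were at 0 counts in every library, and Fabp3, the heart form, was at 0.328 CPM or less. The uptake list held 16 genes, of which 4 were tested, and 6 were at 0 in every library, among them Lpl, which encodes lipoprotein lipase. All 4 tested had a log2 fold change above 0 (50.7% of all genes did), 0 passed the adjusted test, and their median of 1.01 came down to 0.18 with the 2 genes that reached a mean of 5 CPM. Vldlr, at 0.274 and 0.153 CPM (vehicle) and 5.60 and 0.537 CPM (DCA), passed the filter only through DCA replicate 1. Its direction follows from the filter. Slc27a4 stood at 0.164 and 2.94 CPM (vehicle) and 4.77 and 6.13 CPM (DCA), with the vehicle libraries 17.9-fold apart. The libraries of Fabp5 and Slc27a1 overlapped. The shared direction of the 4 was not tested and is not read here as a result about uptake. The highest transporter per length among them, Slc27a1 (FATP1), stood at 9.87 and 8.33 CPM (vehicle) and 7.24 and 13.2 CPM (DCA). Of 7 genes for acyl-CoA synthetases and acyl-CoA binding, 6 were tested, 3 were above and 3 below 0, and 0 passed. Dbi, the acyl-CoA binding protein, was the highest of these per length, at 204 and 247 CPM (vehicle) and 195 and 288 CPM (DCA).

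**Figure D2:**
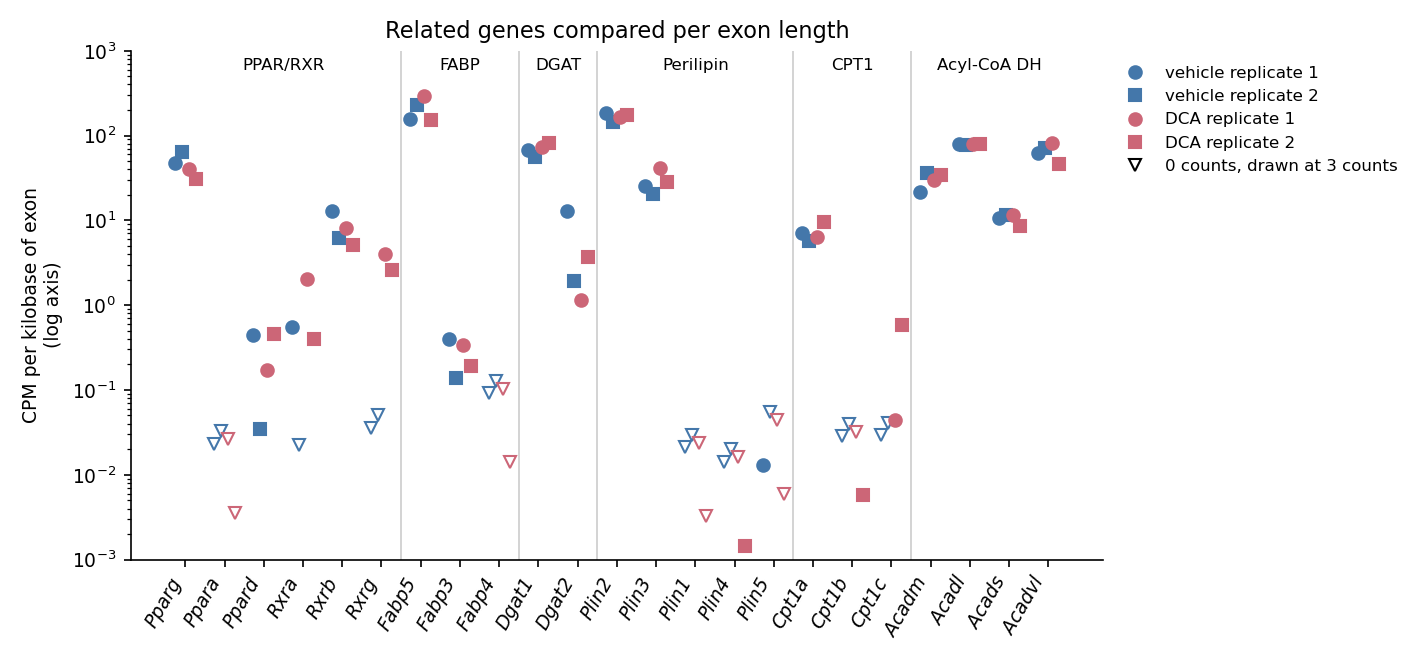
Level per exon length of members of 6 gene families in each library, in CPM per kilobase of exon on a log axis, with vehicle in blue, DCA in red, and open triangles for 0 counts drawn at 3 counts. As counted, Pparg, Fabp5, Dgat1, Plin2, and Cpt1a are the highest of their families in all 4 libraries, while Acadl and Acadvl, a dehydrogenase of longer chains, lie close together. Cpt1b shares most of its exon bases with Gm44502 on the same strand, and Acadvl shares 1151 with Dvl2 on the opposite strand.

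DGAT1 and DGAT2 are unrelated enzymes that both add the last fatty acid to triglyceride. Dgat1 (Entrez gene 13350, chromosome 15, 76502015 to 76511953, minus strand) stood at 127 and 106 CPM (vehicle) and 137 and 153 CPM (DCA). The groups did not overlap, with DCA higher, as was the case for 18.6% of all genes tested. Mean Dgat1 was 117 ± 14.9 CPM (SD, n = 2) without DCA and 145 ± 11.0 CPM (SD, n = 2) with it. The log2 difference was 0.31 (SE 0.15, edgeR unadjusted p = 0.257, adjusted p = 0.999), and the limma interval ran from -0.28 to 0.90.

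Dgat2 (Entrez gene 67800, chromosome 7, 99153658 to 99182719, minus strand) had 1077 and 115 counts with vehicle and 84 and 2036 counts with DCA, or 29.5 and 4.39 CPM against 2.60 and 8.47 CPM. The 2 vehicle libraries were 6.70-fold apart and the 2 DCA libraries 3.26-fold apart. Dgat2 was the 1 gene of the 9 with a gap of at least 2-fold in either group, where 28.2% of all tested genes had such a gap with vehicle and 19.9% with DCA, among those with more than 3 counts in both libraries. For Dgat2 the spread between the vehicle libraries was larger than the difference between the means of 16.9 ± 17.7 CPM (SD, n = 2) and 5.53 ± 4.15 CPM (SD, n = 2). A gap as wide between the vehicle libraries was found for 6.06% of the 10112 tested genes with more than 3 counts in both, and the median gap of those genes was 1.47-fold. The edgeR log2 difference of Dgat2 was -1.61 (edgeR unadjusted p = 0.196), and the difference in log2(CPM + 1) was -1.13 (SE 1.43). The edgeR difference became 0.31 without vehicle replicate 1, -2.40 without vehicle replicate 2, -0.99 without DCA replicate 1, and -2.70 without DCA replicate 2. Dgat1 exceeded Dgat2 per length in each library, by 5.18-fold in vehicle replicate 1, 29.0-fold in vehicle replicate 2, 63.1-fold in DCA replicate 1, and 21.6-fold in DCA replicate 2.

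Of 16 triglyceride synthesis genes, 12 were tested and 0 passed, with 5 above and 7 below 0. The median log2 fold change was -0.048, and it ran from -0.255 without DCA replicate 1 to 0.0863 without vehicle replicate 2. Agpat4, an acyltransferase of an earlier step and the highest of the others per length, stood at 118 and 42.1 CPM (vehicle) and 62.5 and 52.8 CPM (DCA), so both DCA values lay between the 2 vehicle values.

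Plin2 and Hilpda encode proteins of the lipid droplet. Plin2, the perilipin that coats droplets in most cells outside fat (Entrez gene 11520, chromosome 4, 86648386 to 86670060, minus strand), stood at 347 and 273 CPM (vehicle) and 315 and 330 CPM (DCA). Both DCA values lay between the 2 vehicle values. Mean Plin2 was 310 ± 52.4 CPM (SD, n = 2) without DCA and 323 ± 10.4 CPM (SD, n = 2) with it, a log2 difference of 0.06 (SE 0.18, edgeR unadjusted p = 0.81), and the limma interval ran from -0.46 to 0.60. Plin3, singled out after its values were seen, was the other perilipin present, and per length Plin2 exceeded it by 3.99-fold to 7.30-fold over the 4 libraries. Plin3 stood at 91.9 and 75.05 CPM (vehicle) and 153 and 102 CPM (DCA), without overlap, as for 18.6% of all genes tested with DCA higher. Its log2 difference was 0.61 (edgeR unadjusted p = 0.0931, adjusted p = 0.999). Plin1 was at 0 counts in every library, and Plin4 and Plin5 were under 0.1 CPM.

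Hilpda, a small protein that is induced by hypoxia and by fatty acids and restrains the lipase ATGL (Entrez gene 69573, chromosome 6, 29272488 to 29275446, plus strand), stood at 116 and 101 CPM (vehicle) and 70.5 and 104 CPM (DCA). Mean Hilpda was 108 ± 9.94 CPM (SD, n = 2) without DCA and 87.3 ± 23.8 CPM (SD, n = 2) with it. DCA replicate 1 was the lowest library, and DCA replicate 2 lay between the vehicle libraries. Hilpda differed by -0.31 on the log2 scale (SE 0.29, edgeR unadjusted p = 0.336), and this was -0.063 without DCA replicate 1. Over the droplet list, 5 of 12 genes were tested and 0 passed, and the highest of the others per length was Bscl2, which encodes seipin, a protein of droplet formation, at 168 and 164 CPM (vehicle) and 199 and 162 CPM (DCA).

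Triglyceride is broken down again by lipases. Pnpla2, which encodes ATGL, the enzyme of the first step, stood at 64.3 and 31.3 CPM (vehicle) and 60.3 and 68.7 CPM (DCA). Mgll, the monoglyceride lipase of the last step, stood at 11.9 and 5.12 CPM (vehicle) and 23.2 and 35.5 CPM (DCA). The groups did not overlap for Mgll, with DCA higher. The log2 difference was 1.79 (SE 0.61, edgeR unadjusted p = 0.0302, adjusted p = 0.999), and the adjusted p was 0.164 or more in every alternative that kept all 4 libraries. Mgll shares exon bases with Gm26588 on the opposite strand, and the strand setting of the counting is not given in the sources used here. In this list 5 of 6 genes were tested, 0 passed, and G0s2, which encodes an inhibitor of ATGL, was at 0 counts in every library.

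CPT1 links acyl groups to carnitine at the outer mitochondrial membrane and is the gate to mitochondrial oxidation. Cpt1a, its liver form (Entrez gene 12894, chromosome 19, 3322334 to 3385733, plus strand), stood at 30.6 and 24.9 CPM (vehicle) and 27.6 and 40.8 CPM (DCA). DCA replicate 1 lay between the vehicle libraries and DCA replicate 2 above them. Mean Cpt1a was 27.8 ± 4.05 CPM (SD, n = 2) without DCA and 34.2 ± 9.34 CPM (SD, n = 2) with it, a log2 difference of 0.30 (SE 0.31, edgeR unadjusted p = 0.5) that became -0.0087 without DCA replicate 2. The muscle form Cpt1b had 0 counts in 3 libraries and 4 counts in DCA replicate 2. Cpt1b shares 2744 of its 3372 exon bases in the full annotation with Gm44502 on the same strand. How shared reads were counted is not given, so its level cannot be judged from these counts. The brain form Cpt1c had 0 counts with vehicle and 4 and 389 counts with DCA, under the filter, and both forms were singled out after their values were seen. In the carnitine shuttle list 6 of 9 genes were tested and 0 passed, with a median of 0.17. Slc25a20, the carnitine and acylcarnitine carrier of the inner membrane, had the highest mean level per length of the others (Mlycd, a malonyl-CoA decarboxylase, with the exon lengths of the full annotation), at 37.5 and 33.7 CPM (vehicle) and 54.5 and 46.8 CPM (DCA), a log2 difference of 0.51 with an edgeR unadjusted p of 0.184.

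Acadm and Acadl encode the medium-chain and long-chain acyl-CoA dehydrogenases, which open each round of β-oxidation. Acadm (Entrez gene 11364, chromosome 3, 153922357 to 153944632, minus strand) stood at 44.0 and 74.3 CPM (vehicle) and 61.0 and 70.2 CPM (DCA), with both DCA values between the vehicle values. Mean Acadm was 59.1 ± 21.4 CPM (SD, n = 2) without DCA and 65.6 ± 6.51 CPM (SD, n = 2) with it. The log2 difference was 0.15 (SE 0.39, edgeR unadjusted p = 0.691), and it was -0.20 without vehicle replicate 1. Acadl (Entrez gene 11363, chromosome 1, 66830839 to 66863277, minus strand) was at 154 and 146 CPM with vehicle and at 153 CPM in both DCA libraries. It varied least of the 9, with the vehicle libraries 1.05-fold apart and a log2 difference of 0.025 (SE 0.038, edgeR unadjusted p = 0.916). The limma interval for Acadl, which borrows its spread from other genes, ran from -0.52 to 0.57. Per length, Acadl exceeded Acadm in each library, by 2.10-fold to 3.75-fold.

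All 18 mitochondrial oxidation genes were tested, the only list with every gene above the filter. Of these 0 passed, 8 were above and 10 below 0, and the median log2 fold change was -0.038. The highest of the others per length was Etfb, a subunit of the flavoprotein that takes electrons from the dehydrogenases, at 307 and 338 CPM (vehicle) and 300 and 330 CPM (DCA). Etfb shares exon bases with same-strand genes (largest overlap 617 bases), and how shared reads were counted is not given. Of the 10 genes below 0, Acad10 passed the filter only through vehicle replicate 2, so its direction follows from the filter. Acad10 stood at 0.191 and 6.15 CPM (vehicle) and 0 and 0.0998 CPM (DCA). In peroxisomes, which shorten very long chains, 10 of 12 genes were tested and 0 passed. Acaa1a, a peroxisomal thiolase, stood at 47.0 and 36.6 CPM (vehicle) and 85.2 and 67.0 CPM (DCA), without overlap. Acaa1a differed by 0.86 on the log2 scale (SE 0.24, edgeR unadjusted p = 0.0373, adjusted p = 0.999), and the adjusted p was 0.305 or more in the alternatives that kept all 4 libraries. Acaa1a shares exon bases with Myd88 on the opposite strand. Scp2, the sterol carrier protein that also holds a peroxisomal thiolase, stood at 166 and 167 CPM (vehicle) and 181 and 141 CPM (DCA).

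**Figure D3:**
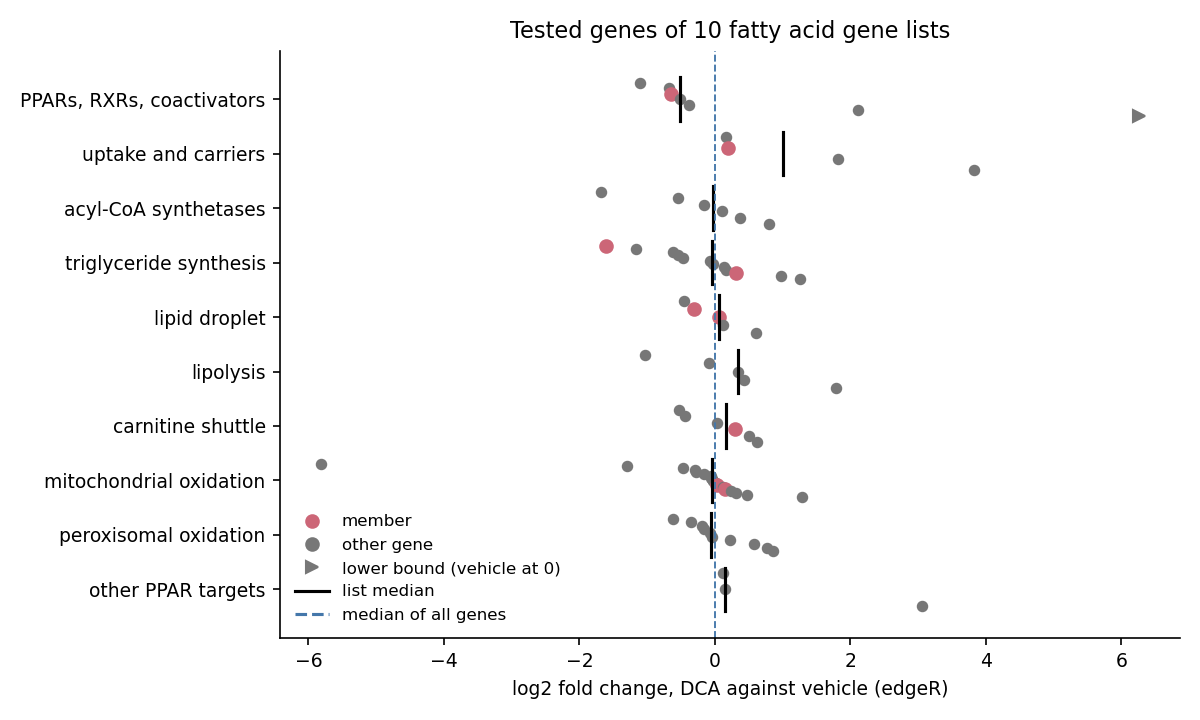
Log2 fold change with DCA of the 76 tested genes in 10 fatty acid gene lists (edgeR), with the 9 tested genes followed here in red, others in gray, the median of each list as a black bar, and the median of all 11184 genes as a dashed line. The right-pointing triangle is Rxrg, drawn at its lower bound for counting error only. Members of each list lie on both sides of 0, except in the lists for uptake and for other PPAR targets. In those lists few genes passed the filter, and Vldlr and Acot2 passed it only through DCA libraries.

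Over all 10 lists, 76 of 114 genes were tested, 0 passed the adjusted test, and 3 had an unadjusted p under 0.05, all higher with DCA (Rxrg, Mgll, and Acaa1a), where 2.54% of all genes were higher at that p. Of these, Rxrg passed the filter only through the DCA libraries, so its direction follows from the filter. Log2 fold changes were above 0 for 39 and below 0 for 37. The libraries did not overlap for 16 genes higher and 9 genes lower with DCA, and all genes gave 18.6% and 14.7%. The 16 include Rxrg, Vldlr, and Acot2, and the 9 include Acad10, each of which passed the filter only through the group where it was higher. Other PPAR targets left 3 of 8 genes to test, each with a log2 fold change above 0. Acot2, at 0.821 and 0 CPM (vehicle) and 2.35 and 4.53 CPM (DCA), passed the filter only through the DCA libraries, so its direction follows from the filter. Ucp2, an uncoupling protein of the inner mitochondrial membrane, was the highest of the PPAR targets at 1335 and 1394 CPM (vehicle) and 1614 and 1347 CPM (DCA). Pdk4, a target of PPARs in muscle, was under 0.1 CPM in every library.

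**Figure D4:**
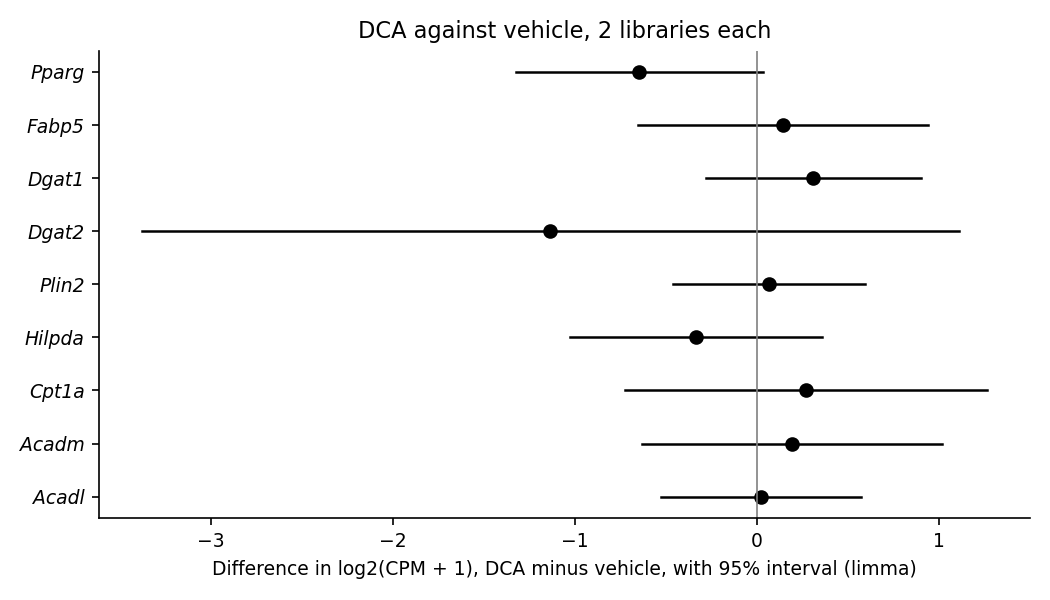
Difference in log2(CPM + 1) between DCA and vehicle for the 9 tested genes, with the 95% interval from limma. Every interval includes 0, the one for Pparg runs from -1.32 to 0.03, and the one for Dgat2 is the widest.

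By mean level per length over the 4 libraries, the order was Fabp5 (207), Plin2 (168), Hilpda (88.8), Acadl (79.1), Dgat1 (69.3), Pparg (45.2), Acadm (30.5), Cpt1a (7.18), Dgat2 (4.96), and Cd36 (0.0024), each in CPM per kilobase of exon. Neighbors whose libraries overlapped were Fabp5 and Plin2, Hilpda and Acadl, Acadl and Dgat1, Dgat1 and Pparg, Pparg and Acadm, and Cpt1a and Dgat2. There was no overlap between Plin2 and Hilpda, Acadm and Cpt1a, or Dgat2 and Cd36. The order depends on exon lengths, and with the longer exon set of the full annotation Fabp5 came to 57.2 and Plin2 to 90.1, which puts Fabp5 below Plin2, Hilpda, and Acadl.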

How the data were processed

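RNA-Seq of 4 libraries of cultured ILC2s was re-analyzed. The submitters' processing notes name cutadapt 1.9, HISAT2 2.2.1, and mm10. The deposited values are read counts for each gene, whole numbers under a table title that speaks of FPKM. The counting tool, annotation, and strand setting are not given in the sources used here. The 11184 genes whose mean reached 1 CPM were fitted in edgeR 4.0.16 under R 4.3.3 (TMM, two-sided quasi-likelihood test, Benjamini-Hochberg over all of them). Intervals come from limma 3.58.1 on log2(CPM + 1). Each SE was also computed over log2(CPM + 1), while log2 differences come from edgeR unless another fit is named. DESeq2 1.42.0, other scalings and filters, a replicate block, and leaving out each library were the alternatives. Exon lengths and positions come from GENCODE M21 (GRCm38), where all 114 list genes matched by symbol. The genes named are the 10 followed here, list genes with an unadjusted p under 0.05, and the highest other gene per length in each list. Relatives and textbook partners of these genes that are also named (Ppara, Ppard, Acadvl, Pdk4, Lpl, G0s2, and further Fabp, Plin, and Cpt1 genes) were chosen outside this rule, after their values were seen. So were Rxra, Lpin1, Vldlr, Acad10, and Acot2, which are named for a count of 0 or for how they passed the filter. Slc27a4 was also chosen after its values were seen, for the spread of its vehicle libraries. Members and lists were chosen with earlier results of these data known. A count of 0 allows 3 counts, and PCR reads are not independent molecules, so these limits cover counting error only.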

Additional observations from a re-analysis of the deposited data

How the results depend on the processing

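The count of tested genes followed here with an adjusted p under 0.05 was 0 under each of the 14 alternatives, and their median log2 difference (0.056) lay between 0.029 and 0.11 with all 4 libraries and between -0.011 and 0.037 with 1 left out. Over all genes, 0 passed as analyzed (478 before adjustment), 36 passed without a filter (847 before adjustment), 126 with DESeq2, and 253 with DESeq2 without the CPM filter, an alternative chosen after seeing the data. Among the list genes these DESeq2 fits each called 1, Rxrg. Acadl turned to -0.00266 with median-of-ratios size factors, -0.0027 with DESeq2, and -0.00427 with DESeq2 without the filter. The median of the uptake list moved from 1.01 to 0.18 at a mean of at least 5 CPM, and that of other PPAR targets from 0.15 to 2.07 with limma on log2(CPM + 0.1). The labels link same-numbered libraries by the number only. The correlation of their deviations was 0.020, which cannot tell whether they shared animals or a culture. The replicate block called 0 genes (450 before adjustment) and gave medians of 1.53 for uptake and 3.29 for PPAR targets. Leaving out 1 library, with the lone library assumed to vary like the others, called 0 to 20 genes, 20 without vehicle replicate 1. It gave -0.205 to 0.58 for Acadm, -0.0111 to 0.0368 for Acadl, -0.00874 to 0.551 for Cpt1a, -2.70 to 0.31 for Dgat2, -0.364 to 0.60 for Fabp5, and -0.105 to 0.213 for Plin2. Pparg (-0.875 to -0.43) and Hilpda (-0.62 to -0.0631) stayed below 0 and Dgat1 (0.188 to 0.42) above 0. List medians ran from -0.729 to 0.0622 for regulators, 0.528 to 1.98 for uptake, -0.272 to 0.235 for activation, -0.255 to 0.0863 for triglyceride synthesis (0.0382 and 0.0386 with limma and 0.0383 with the replicate block), -0.0417 to 0.111 for droplets, 0.0059 to 1.02 for lipolysis, -0.181 to 0.305 for the carnitine shuttle, -0.145 to 0.0382 for mitochondrial and -0.218 to 0.212 for peroxisomal oxidation, and 0.0603 to 2.07 for PPAR targets. For all these shifts the cause was not tested. With 2 libraries a group, differences the size of those within a group could not be resolved, and Cd36 lay at the limit of depth.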
